A study of Rattus norvegicus with 9 samples.

Results

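Autophagy and lysosome genes were taken as a fixed list of 36 genes, of which 33 were measured by a probe set that the platform annotation gives to a single gene, out of 14217 genes measured in this way. The other 3, Map1lc3b, Gabarapl2 and Nbr1, are matched by probe sets listed for several genes and are not described. Of the 33 members, 18 belong to autophagy, 14 to the lysosome and its proton pump, and Tfeb stands alone as a regulator of both. The list names genes by their known function. No measured value enters the choice of genes, although earlier results of these data were known when the list was made. The probe set of each gene was its brightest, judged on all arrays together. The samples were pancreatic islets of Wistar rats, freed by collagenase and each hybridised to a GeneChip of the whole rat genome, so that 1 array is 1 sample. A lean group (n = 4) had eaten standard chow, and an obese group (n = 5) had eaten a high-caloric cafeteria diet, a choice of palatable energy-dense foods, for 30 days. No group carried a transgene or received a drug according to the labels. The sources used here give no age, sex, feeding state or pooling of the animals, and a p-value therefore reflects no more than the variation among the 9 arrays. Expression is given as log2 values from the authors, and a difference of 1 is a doubling. The islet hormone genes Ins1, Ins2, Iapp, Gcg and Sst lay between 12.32 and 14.24 in every array, where the array medians were 5.28 to 5.32.

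Autophagy is the process by which a cell wraps part of its cytoplasm in a double membrane, the autophagosome, and delivers it to the lysosome for breakdown. A kinase complex starts the membrane, a lipid kinase complex marks it, and a pair of ubiquitin-like conjugation systems attach proteins of the Atg8 family to its lipids. The lysosome digests the content with acid hydrolases, and a rotary proton pump, the V-ATPase, keeps it acid. In beta cells autophagy clears worn mitochondria and misfolded proteins, and lysosomes also take up surplus insulin granules. These arrays measure the mRNA of the machinery and not the flux through it.

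No member passed the test. By limma, 0 of 33 members had an adjusted p under 0.05, as did 0.0% of all genes, and the lowest adjusted p of a member was 0.844. At unadjusted p under 0.05 stood 2 of 33 members by limma, a share near the 6.7% of all genes. Of these 2, Atp6v1a was higher under the cafeteria diet (3.42% of all genes) and Atg3 lower (3.28%). In 1 of 33 members, Atp6v1a, the groups did not overlap, against 2.17% of all genes, with 1.33% higher and 0.837% lower. The differences of the members, cafeteria minus lean on the log2 scale, ran from -0.25 to 0.28. Their standard errors (SE) from the fit ran from 0.062 to 0.19. Below 0 lay 21 of the 33 differences, and 12 above, while 49.2% of all genes were below 0 and 50.8% above. The median was -0.032 for the 18 autophagy members and -0.032 for the 14 lysosome members, beside 0.0025 for all genes. Without lean replicate 2 the lysosome median was 0.000092. In whole islets, fewer cells of a type and less RNA per cell cannot be told apart. The 95% intervals excluded a 2-fold change in either direction for all 33 members. A 1.5-fold change either way was excluded for 31 members, all but Wipi1 and Atp6v0c.

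**Figure D1:**
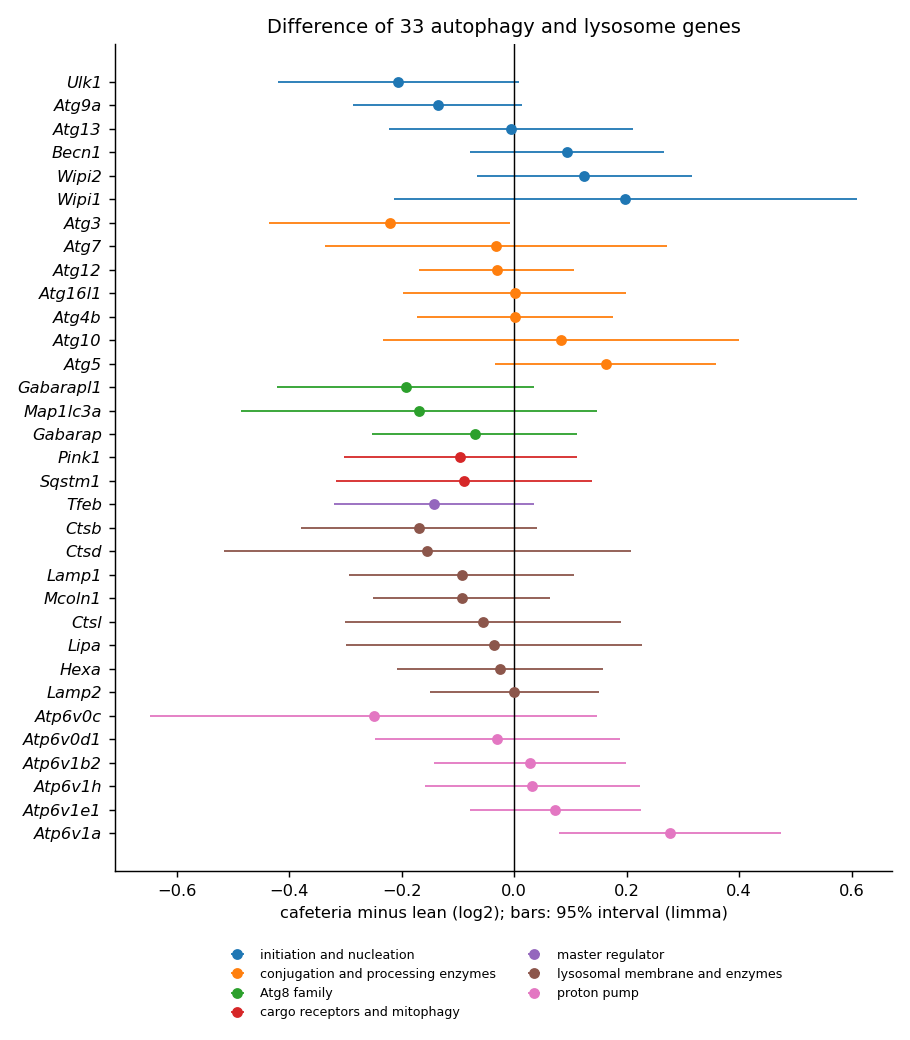
Difference between cafeteria and lean islets (log2, horizontal axis) for each of the 33 members, with the 95% interval from limma, coloured by role. The points lie between -0.25 (Atp6v0c) and 0.28 (Atp6v1a), and the intervals of Atp6v1a and Atg3 alone leave out 0 before adjustment.

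Promoters of the members whose start site is listed by RefSeq (assembly GRCr8) were searched for letters bound by Tfeb and its relatives. Many lysosomal genes carry this element. The search used CACGTG, the E-box, and the longer TCACGTGA, which contains it, in windows of 300 bases, 250 before and 50 after the start; both read the same on the 2 strands. Of the 33 members 26 had a listed promoter. The longer letters stood in 4 of 10 lysosome promoters, in 1 of 15 autophagy promoters and in 0.777% of all 33469 promoters in the table. CACGTG stood in 4 of 10 lysosome promoters, in 3 of 15 autophagy promoters and in 6.42% of all. The 5 promoters with the longer letters and that of Atp6v1a, which had the smallest p among the members and has no CACGTG in its window, are shown 5′ to 3′ on the strand of the gene. Capitals mark TCACGTGA, or CACGTG where the longer form is absent. Only these exact forms were searched, and other letters that these factors may bind were not. The stretch of Atp6v1a holds tcacatga, a near match to TCACGTGA that the search did not cover.
Lamp1, chr16:83075064-83075253, minus strand: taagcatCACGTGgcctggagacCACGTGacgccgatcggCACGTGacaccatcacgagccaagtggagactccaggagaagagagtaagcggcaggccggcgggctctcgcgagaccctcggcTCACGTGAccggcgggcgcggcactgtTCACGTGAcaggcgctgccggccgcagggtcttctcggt
Ctsd, chr1:206968822-206968881, minus strand: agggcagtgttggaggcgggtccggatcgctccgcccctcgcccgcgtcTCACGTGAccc
Mcoln1, chr12:6358228-6358269, plus strand: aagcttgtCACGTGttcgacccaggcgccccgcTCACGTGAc
Atp6v0d1, chr19:50357249-50357318, minus strand: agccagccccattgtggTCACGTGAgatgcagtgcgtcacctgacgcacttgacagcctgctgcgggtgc
Atg3, chr11:69159281-69159340, minus strand: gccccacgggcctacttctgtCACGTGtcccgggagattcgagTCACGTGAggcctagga
Atp6v1a, chr11:70067382-70067501, plus strand: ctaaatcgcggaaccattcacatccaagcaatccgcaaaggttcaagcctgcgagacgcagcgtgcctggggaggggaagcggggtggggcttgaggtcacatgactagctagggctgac

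The Lamp1 promoter held 5 copies of CACGTG, 2 of them in the longer form. The printed stretches end at the base before the start site, except that of Mcoln1, whose longer element lies just past it. All 5 genes with TCACGTGA had differences below 0, between -0.22 (Atg3) and -0.030 (Atp6v0d1), with a median of -0.094. Both other probe sets of Lamp1, dim at mean levels of 4.30 and 4.21, were above 0, at 0.43 and 0.10. Atp6v0d1 ran from -0.12 to 0.0096 with single arrays left out. Of all 7 members with CACGTG 6 were below 0, and Atg5 was above, at 0.16. The 19 members without CACGTG had a median of -0.031, with 11 below 0 and 8 above, and ran from -0.25 (Atp6v0c) to 0.28 (Atp6v1a). None of these genes passed the test, and a match of letters is a description and not a binding site. Of all 33 members 21 were below 0, and whether the letters go with a direction was not tested. The motifs were chosen with earlier results of these data known.

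Tfeb encodes the transcription factor that drives lysosomal and autophagy genes through that element. Its log2 values were 6.53, 6.67, 6.49 and 6.48 in lean replicates 1 to 4, and 6.48, 6.52, 6.34, 6.44 and 6.23 in cafeteria replicates 1 to 5. The lean group was on average higher, but cafeteria replicates 1 and 2 lay within its range. The difference was -0.14 (SE 0.080), with a 95% interval from -0.32 to 0.035 (limma, unadjusted p = 0.105, adjusted p = 0.844). With the mean level of macrophage markers in the fit it was -0.25 (limma, unadjusted p = 0.0208, adjusted p = 0.798), and with that of acinar markers -0.21 (limma, unadjusted p = 0.0291, adjusted p = 0.903). It was smaller with array weights (-0.12), after repeated quantile normalization (-0.11) and without lean replicate 2 (-0.099; limma, unadjusted p = 0.269).

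Genes that start the autophagosome went in both directions, with 3 of 6 members above 0 and 3 below. Ulk1 encodes the kinase that opens the process. It measured 7.42, 7.75, 7.74 and 7.60 in the lean arrays and 7.61, 7.51, 7.36, 7.34 and 7.28 in the cafeteria arrays. The 3 lowest values were cafeteria arrays, but lean replicate 1 lay among the cafeteria values. Ulk1 differed by -0.21 (SE 0.097; limma, unadjusted p = 0.0580, adjusted p = 0.844). With single arrays left out it ran from -0.27 (without lean replicate 1) to -0.16 (without lean replicate 2). The second probe set of Ulk1 differed by -0.084, and the mean of both by -0.15 (limma, unadjusted p = 0.314). Atg9a, the membrane protein whose vesicles seed the autophagosome, measured 7.92, 7.84, 7.85 and 7.92 in lean islets and 7.84, 7.82, 7.64, 7.75 and 7.67 in cafeteria islets. Only cafeteria replicate 1 reached the lean range, by a small margin. The difference of Atg9a was -0.14 (SE 0.068; limma, unadjusted p = 0.0709, adjusted p = 0.844), and its other probe set differed by 0.037. That set had a mean level of 5.29, among the array medians.

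The WIPI proteins read the lipid mark on the growing membrane, and both genes had differences above 0. Wipi2 measured 6.75, 6.56, 6.71 and 6.84 in the lean arrays and 6.90, 6.64, 6.80, 6.94 and 6.92 in the cafeteria arrays. The groups overlapped, with cafeteria replicate 2 below 3 of the 4 lean arrays. Wipi2 differed by 0.12 (SE 0.086; limma, unadjusted p = 0.178, adjusted p = 0.849), and by 0.072 without lean replicate 2. For Wipi1 the cafeteria arrays spread over 0.99 log2, from 6.47 to 7.46, whereas the lean arrays spread over 0.33, from 6.58 to 6.91. Cafeteria replicates 1 and 2 lay below every lean array and replicates 3, 4 and 5 above every one. Wipi1 differed by 0.20 (SE 0.19; limma, unadjusted p = 0.312, adjusted p = 0.877), by 0.059 without cafeteria replicate 3 and by 0.31 without cafeteria replicate 2. Becn1, a subunit of the lipid kinase complex, differed by 0.094 (SE 0.078; limma, unadjusted p = 0.256), and Atg13, a partner of Ulk1, by -0.0050 (SE 0.098; unadjusted p = 0.961). Becn1 differed by 0.050 without cafeteria replicate 3.

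Among the 7 conjugation and processing enzymes 4 were above 0 and 3 below, with a median of 0.00064. Atg3 encodes the E2-like enzyme that transfers Atg8 proteins to phosphatidylethanolamine. It measured 8.51, 8.65, 8.64 and 8.50 in lean islets and 8.62, 8.33, 8.14, 8.26 and 8.42 in cafeteria islets. In 4 of 5 cafeteria arrays Atg3 lay below every lean array, and replicate 1 stood inside the lean range. Its difference was -0.22 (SE 0.097), or 1.17-fold higher in lean islets, and it had the second smallest p of the members (limma, unadjusted p = 0.0441, adjusted p = 0.844). Without cafeteria replicate 1 it differed by -0.29 and without cafeteria replicate 3 by -0.17.

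Atg5, which joins Atg12 to form the complex that places Atg8 proteins, measured 7.77, 7.49, 7.44 and 7.64 in lean islets. The cafeteria values were 7.57, 7.77, 7.76, 7.75 and 7.86. Lean replicate 1 was as high as most cafeteria arrays, and cafeteria replicate 1 was within the lean range. The difference was 0.16 (SE 0.089; limma, unadjusted p = 0.0952, adjusted p = 0.844). Both other probe sets of Atg5 also had differences above 0, at 0.12 and 0.12. The mean of the 3 differed by 0.13 (limma, unadjusted p = 0.0438, adjusted p = 0.695). With probe sets averaged, 7.13% of all genes had an unadjusted p under 0.05 by limma. The dimmest of the 3 had a mean level of 4.33, below every array median. Atg7, the E1-like enzyme of both systems, differed by -0.033 (SE 0.14; limma, unadjusted p = 0.817), and Atg10, the E2-like enzyme for Atg12, by 0.084 (SE 0.14; unadjusted p = 0.571). The value of Atg10 rested on single arrays, since it was 0.00026 without lean replicate 4 and 0.012 without cafeteria replicate 3. Atg12 differed by -0.031 (SE 0.062; limma, unadjusted p = 0.624). The protease gene Atg4b, whose product trims Atg8 proteins, differed by 0.0022 (SE 0.079; limma, unadjusted p = 0.979). Atg16l1, whose product anchors the complex to the membrane, differed by 0.00064 (SE 0.090; limma, unadjusted p = 0.994). For these 5 genes the groups overlapped, with 95% intervals between -0.34 and 0.40 and adjusted p of 0.939 or above by limma. The other probe set of Atg4b had the opposite sign, at -0.067. Of the 2 other probe sets of Atg7, 1 had the opposite sign (0.12) and 1 the same (-0.018), and so had those of Atg12 (0.11 and -0.094). The Atg7 set at 0.12 had a mean level of 4.22, below every array median.

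**Figure D2:**
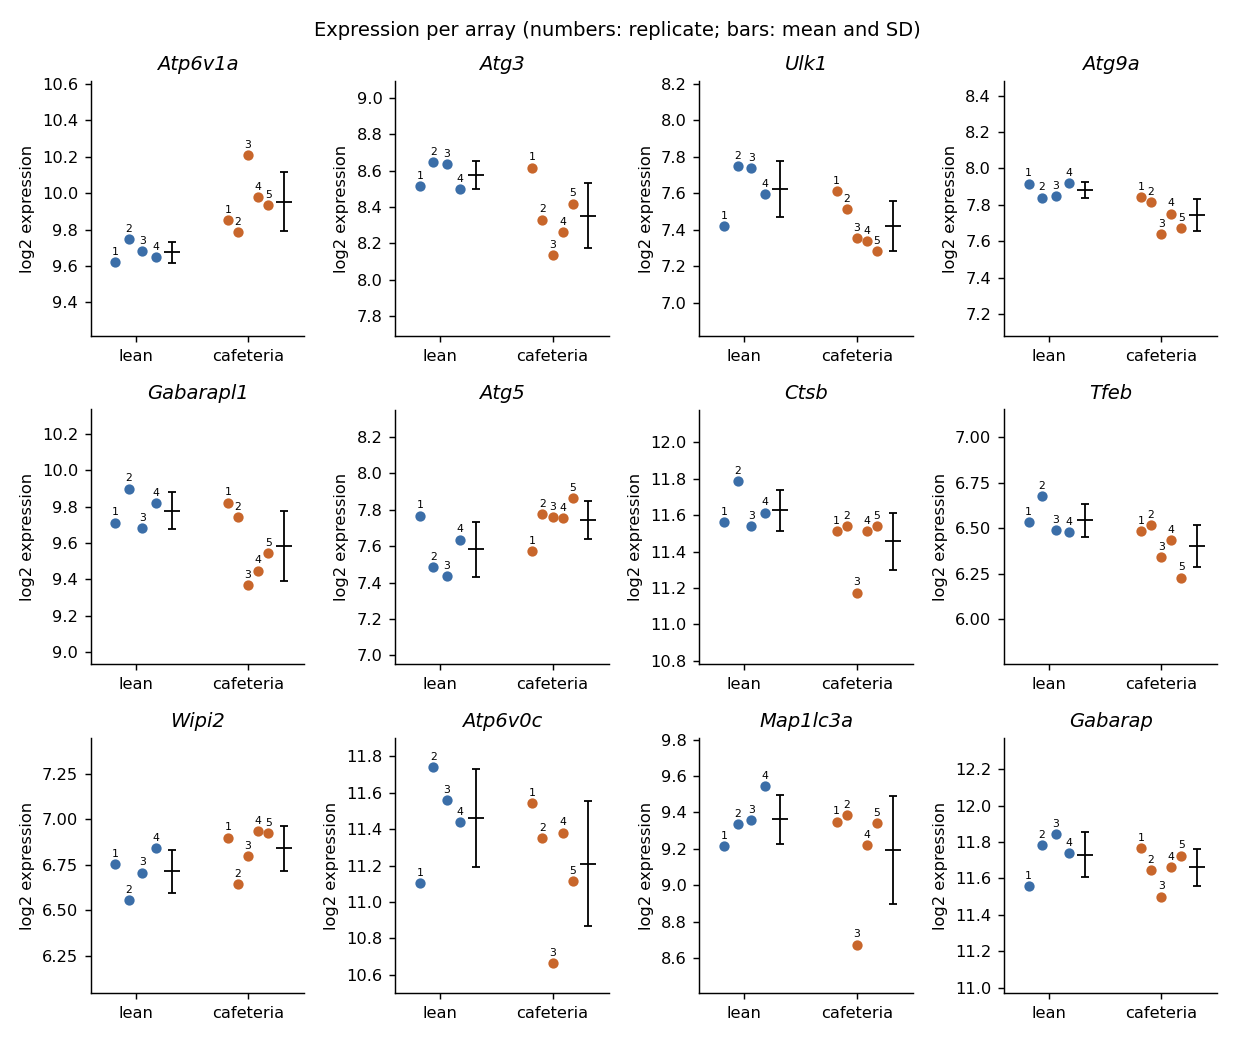
Log2 expression (vertical axis, 1.4 log2 in every panel) in each lean (blue) and cafeteria (orange) array for 12 members, with replicate numbers and the mean with SD beside the points. The groups are separate for Atp6v1a alone, and cafeteria replicate 3 is the lowest array for Atg3, Atg9a, Gabarapl1, Ctsb, Atp6v0c, Map1lc3a and Gabarap.

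The 3 measured Atg8 family genes, whose products coat the autophagosome and hold cargo receptors, were all below 0, with a median of -0.17 that was -0.040 without cafeteria replicate 3 and -0.11 without lean replicate 4. Gabarapl1 measured 9.71, 9.90, 9.68 and 9.82 in lean islets and 9.82, 9.74, 9.37, 9.45 and 9.55 in cafeteria islets. Cafeteria replicates 3, 4 and 5 lay below every lean array, and replicates 1 and 2 among them. It differed by -0.19 (SE 0.10; limma, unadjusted p = 0.0904, adjusted p = 0.844). Map1lc3a, the gene of LC3A, measured 9.22, 9.33, 9.36 and 9.54 in lean islets and 9.35, 9.38, 8.67, 9.22 and 9.34 in cafeteria islets. All arrays but cafeteria replicate 3 lay between 9.22 and 9.54. The difference of Map1lc3a was -0.17 (SE 0.14; limma, unadjusted p = 0.262, adjusted p = 0.865), and -0.040 without that array. Gabarap measured 11.56, 11.78, 11.84 and 11.74 in lean and 11.77, 11.65, 11.50, 11.66 and 11.73 in cafeteria islets. These values overlapped over most of their range, and the difference was -0.070 (SE 0.083; limma, unadjusted p = 0.414, adjusted p = 0.903), -0.030 without cafeteria replicate 3 and -0.13 without lean replicate 1. The second probe sets of Gabarap and Gabarapl1 had the opposite sign, at 0.13 and 0.059.

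Sqstm1 encodes p62, a receptor that links ubiquitin-tagged cargo to Atg8 proteins, and Pink1 the kinase that marks damaged mitochondria. Sqstm1 lay between 11.27 and 11.58 in lean and between 11.13 and 11.57 in cafeteria islets, and differed by -0.089 (SE 0.10; limma, unadjusted p = 0.408, adjusted p = 0.901). Its 3 other probe sets were above 0, at 0.012, 0.062 and 0.0081. Those at 0.062 and 0.0081 had mean levels of 4.74 and 4.63, below every array median. Pink1 lay between 7.47 and 7.66 in lean and between 7.23 and 7.68 in cafeteria islets, and differed by -0.096 (SE 0.094; limma, unadjusted p = 0.331, adjusted p = 0.882). For both genes cafeteria replicate 3 was the lowest array, and without it each differed by -0.034.

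Of the 8 genes of lysosomal membrane proteins and enzymes 7 were below 0, with a median of -0.074 (-0.034 without lean replicate 1) and a range from -0.17 to 0.00015, and none passed the test. Ctsb encodes cathepsin B, a cysteine protease. It measured 11.56, 11.79, 11.54 and 11.61 in lean islets and 11.51, 11.54, 11.17, 11.51 and 11.54 in cafeteria islets. Of the 5 cafeteria arrays, 4 lay together at or just under the lowest lean array and replicate 3 well below. The difference was -0.17 (SE 0.095; limma, unadjusted p = 0.102, adjusted p = 0.844), and -0.099 without cafeteria replicate 3. Ctsd, the aspartic protease cathepsin D, varied by 0.60 within the lean group and by 0.71 within the cafeteria group. Its lowest arrays were cafeteria replicate 3 (8.47), lean replicate 1 (8.62) and cafeteria replicate 5 (8.63). Ctsd differed by -0.15 (SE 0.16; limma, unadjusted p = 0.366, adjusted p = 0.889), by -0.28 without lean replicate 1 and by -0.061 without cafeteria replicate 3.

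The genes of the abundant membrane glycoproteins, Lamp1 and Lamp2, differed by -0.094 (SE 0.090; limma, unadjusted p = 0.323) and 0.00015 (SE 0.068; unadjusted p = 0.998). Lamp1 values ran from 11.01 to 11.29 in lean and from 10.92 to 11.24 in cafeteria islets, so the groups covered nearly the same range, and the difference was -0.051 without cafeteria replicate 3. Both other probe sets of Lamp1, whose mean levels of 4.30 and 4.21 fell short of every array median, gave differences above 0, at 0.43 (limma, unadjusted p = 0.00598, adjusted p = 0.844) and 0.10. The other probe set of Lamp2 differed by -0.18. Mcoln1, the calcium channel of the lysosome, differed by -0.093 (SE 0.071; limma, unadjusted p = 0.218), and Ctsl, the protease cathepsin L, by -0.055 (SE 0.11; unadjusted p = 0.628). Hexa, a subunit of the enzyme that degrades GM2 ganglioside, differed by -0.026 (SE 0.083; limma, unadjusted p = 0.763), and Lipa, the acid lipase that frees cholesterol and fatty acids, by -0.035 (SE 0.12; unadjusted p = 0.773). Adjusted p for these 6 genes lay at 0.858 or above (limma).

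The V-ATPase has a membrane sector, V0, which carries the protons, and a cytosolic sector, V1, which hydrolyses ATP. Atp6v1a encodes the catalytic A subunit of V1. Its values were 9.62, 9.75, 9.68 and 9.65 in lean islets and 9.85, 9.79, 10.21, 9.98 and 9.93 in cafeteria islets. All 5 cafeteria arrays lay above all 4 lean arrays, with the nearest pair, cafeteria replicate 2 and lean replicate 2, at 9.79 and 9.75. The difference was 0.28 (SE 0.089), a ratio of 1.21, with a 95% interval from 0.080 to 0.48 and the smallest p of the members (limma, unadjusted p = 0.0105, adjusted p = 0.844). Leaving out single arrays gave 0.21 (without cafeteria replicate 3, its highest array) to 0.32. A second probe set of Atp6v1a differed by 0.092 (SE 0.14), and the mean of both by 0.18 (limma, unadjusted p = 0.105).

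The other V1 members, Atp6v1e1, Atp6v1h and Atp6v1b2, differed by 0.074 (SE 0.069), 0.033 (SE 0.087) and 0.029 (SE 0.077), with unadjusted p of 0.310, 0.715 and 0.719 by limma. The sign of Atp6v1h and Atp6v1b2 turned when single arrays were left out. Atp6v0c encodes the proteolipid of the V0 ring. It measured 11.10, 11.74, 11.56 and 11.44 in lean islets and 11.54, 11.35, 10.66, 11.38 and 11.12 in cafeteria islets. The lowest arrays were lean replicate 1 and cafeteria replicates 3 and 5. The other arrays lay between 11.35 and 11.74, and the groups overlapped. Atp6v0c had the lowest difference of the members, -0.25 (SE 0.18; limma, unadjusted p = 0.193, adjusted p = 0.851). It was -0.11 without cafeteria replicate 3, -0.16 without lean replicate 2 and -0.37 without lean replicate 1. Atp6v0d1, the V0 subunit that couples to the stalk, differed by -0.030 (SE 0.098; limma, unadjusted p = 0.769). Over members and the further pump genes together, 9 of 12 V1 genes were above 0 (median 0.031) and 3 of 8 V0 genes (median -0.082). Of all genes 50.8% were above 0. Of the 16 further pump genes, 3 lay below every array median in mean level. The difference between the sectors was not tested.

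**Figure D3:**
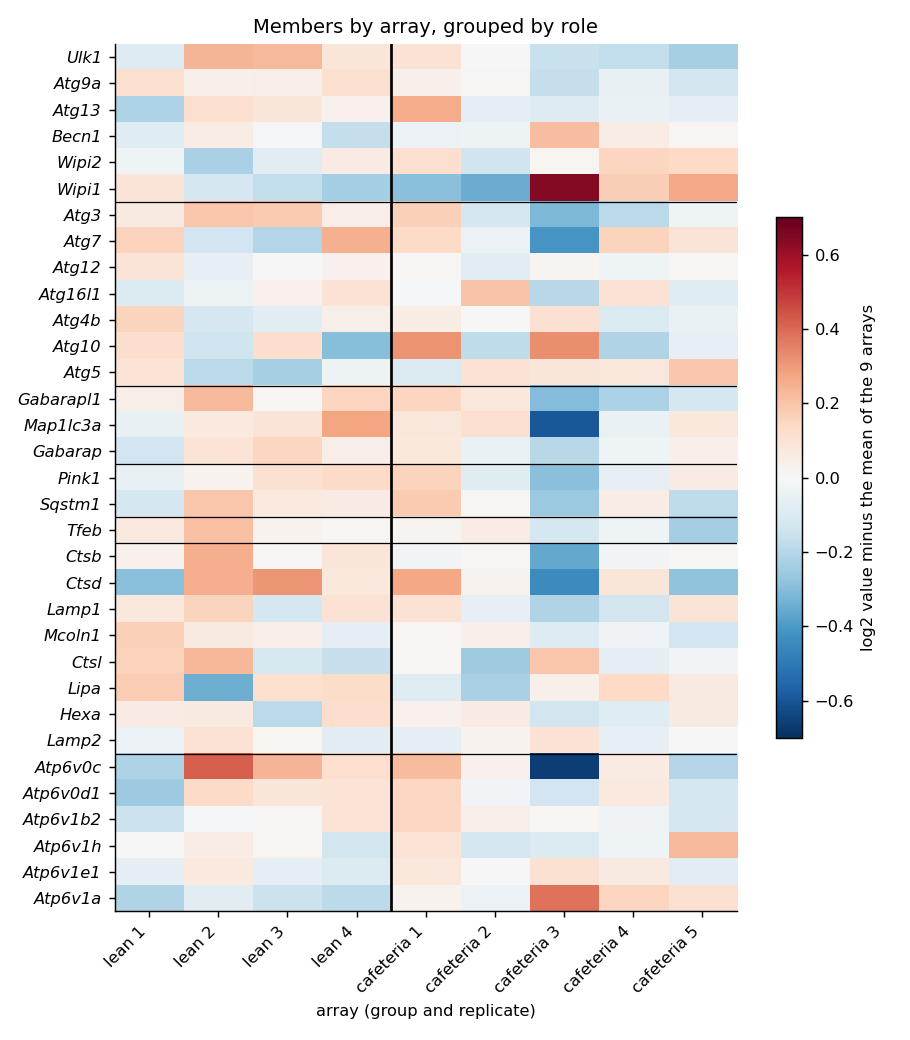
Deviation of each member (rows, grouped by role) from its mean over the 9 arrays (log2, colour) in every array (columns), with a line between the lean and the cafeteria arrays. Cafeteria replicate 3 is dark in both directions, with Wipi1 and Atp6v1a high and Map1lc3a, Atp6v0c, Ctsd and Atg7 low.

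Single arrays carried much of this spread. Cafeteria replicate 3 was the lowest of all 9 arrays in 13 members and the highest in 5 (Atp6v1a, Wipi1, Becn1, Atg10 and Atp6v1e1), whereas lean replicate 2 was the highest in 10. The mean deviation of the Atg8 family was -0.36 in cafeteria replicate 3, against -0.10 to 0.16 in the other arrays. For the lysosomal membrane and enzyme genes it was -0.11 in that array, the lowest of all, and 0.098 in lean replicate 2, the highest. The proton pump genes were lowest in lean replicate 1 (-0.15) and highest in cafeteria replicate 1 (0.12). The 3-prime minus 5-prime difference of the actin and Gapdh control probe sets, a measure of RNA quality that is larger in degraded RNA, was highest in lean replicate 1 (1.80), cafeteria replicate 3 (1.74) and cafeteria replicate 5 (1.73). Cafeteria replicate 1 had the smallest, 1.21. Between the diets this measure differed by -0.052 (1.56 ± 0.16 in the 4 lean and 1.51 ± 0.24 in the 5 cafeteria arrays, SD; two-sided exact permutation p = 0.746). With it as a covariate 7 of 33 members had an unadjusted p under 0.05 by limma, beside 13.5% of all genes. Of the 7 only Atp6v1a and Atg5 were higher under the cafeteria diet, and Atg3, Ulk1, Gabarapl1, Atp6v0c and Ctsd were lower. The lowest adjusted p of a member in that fit was 0.346.

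**Figure D4:**
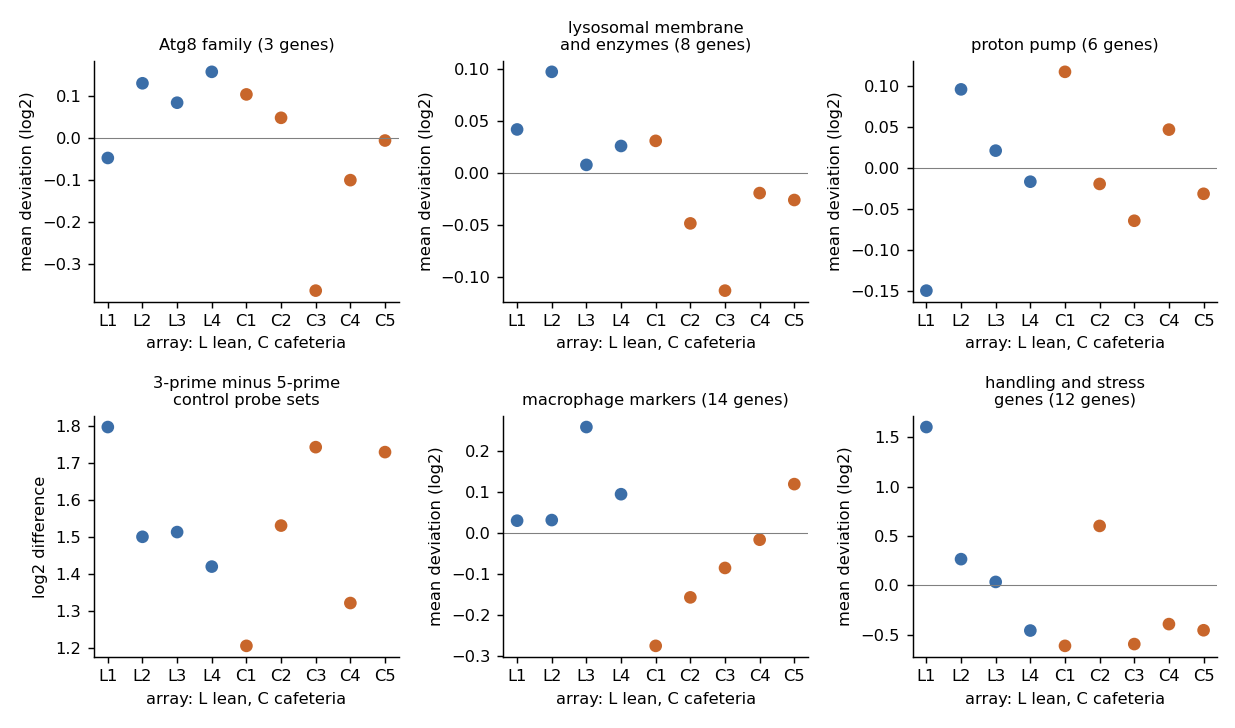
Mean deviation from the 9-array mean (log2) of 3 member groups and of macrophage and handling genes, and the 3-prime minus 5-prime difference of the control probe sets (log2), for lean (L, blue) and cafeteria (C, orange) arrays. Cafeteria replicate 3 is lowest for the Atg8 family (-0.36) and has one of the 3 highest control differences.

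Of 14 macrophage markers, a cell type rich in lysosomes, 12 were lower under the cafeteria diet (median -0.19). Their mean deviation was 0.030 to 0.26 in lean and -0.27 to 0.12 in cafeteria arrays, and 7 of the 14 lay below the array medians in brightness. With this score in the fit the median of the lysosome members was -0.078 and that of the autophagy members -0.065. In that fit 5 of 33 members had an unadjusted p under 0.05 by limma, beside 7.05% of all genes. Lymphoid markers were lower in 11 of 12 (median -0.62; mean deviation 1.29 in lean replicate 3 and -0.28 to 0.13 elsewhere), and 10 of the 12 lay below the array medians in brightness. Acinar markers were higher in 14 of 15 (median 0.58; -0.78 to 0.13 in lean and -1.06 to 0.74 in cafeteria arrays), and handling and stress genes were lower in 12 of 12 (median -0.64; 1.61 in lean replicate 1). Lower values were also found in 7 of 7 markers of other islet cells (median -0.27), 6 of 8 ductal (-0.25), 7 of 9 endothelial (-0.13), 6 of 9 stellate (-0.16) and 4 of 7 beta cell markers (-0.0047). None of these genes passed the test, and their part in the members' values was not tested beyond the covariates named.

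Genes of the same pathways outside the member list were taken from 4 lists. Of 118 such genes 0 passed the test by limma, 3 had an unadjusted p under 0.05 with higher and 5 with lower values, and 71 were below 0. These 8 are 6.78% of the 118, near the 6.7% of all genes. The genes named are those of smallest p in each list, apart from Tcirg1 and Rragd. Among 31 other autophagy genes 19 were below 0 (median -0.079). The smallest p belonged to Calcoco1, a receptor for parts of the endoplasmic reticulum, at -0.50 (SE 0.17; limma, unadjusted p = 0.0168). Pik3c3, the lipid kinase that works with Becn1, differed by -0.23 (SE 0.082; limma, unadjusted p = 0.0178), and Rubcn, an inhibitor of that complex, by -0.15 (SE 0.077; unadjusted p = 0.0743). Each of these genes overlapped between the groups.

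Among 45 other lysosomal genes 30 were below 0 (median -0.029). Gaa, the acid glucosidase that degrades glycogen, differed by 0.24 (SE 0.089; limma, unadjusted p = 0.0205), and ran from 9.63 to 10.02 in lean and from 9.94 to 10.15 in cafeteria islets. Ctsz, the protease cathepsin Z, differed by -0.25 (SE 0.096; limma, unadjusted p = 0.0236), with all cafeteria arrays (6.55 to 6.98) below all lean arrays (7.06 to 7.22). Gnptg, a subunit of the enzyme that tags hydrolases for the lysosome, differed by 0.17 (SE 0.069; limma, unadjusted p = 0.0324). For Gnptg all cafeteria arrays lay above all lean arrays, although the nearest arrays both read 8.99. Over the 118 genes outside the member list the groups were separate in 1 with higher and 1 with lower values. Of all genes 1.33% were separate with higher and 0.837% with lower values.

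Of 16 other pump genes 9 were above 0 (median 0.021). Atp6v0a1 and Atp6v0a2, which encode alternative a subunits of V0, differed in opposite directions, by -0.52 (SE 0.26; limma, unadjusted p = 0.0700) and 0.14 (SE 0.066; limma, unadjusted p = 0.0602). Atp6v0a1 varied widely among lean arrays, from 8.50 to 9.87, and its difference was between -0.80 and -0.35 with single arrays left out. Outside the genes of smallest p, Tcirg1, which encodes a further a subunit, differed by -0.13 (SE 0.088, limma, unadjusted p = 0.160). Atp6v0e2, a small V0 subunit, differed by 0.14 (SE 0.072; limma, unadjusted p = 0.0811). Of 26 regulators of autophagy 15 were below 0 (median -0.025). The Rag GTPases bring the growth kinase mTORC1 to the lysosome. Of their genes, Rraga differed by 0.19 (SE 0.077, limma, unadjusted p = 0.0349) and Rragc by -0.25 (SE 0.11, limma, unadjusted p = 0.0454). Rragd was measured but was not among the genes of smallest p, and Rragb had no single-gene probe set. Flcn, which acts on the Rag GTPases, differed by -0.30 (SE 0.13; limma, unadjusted p = 0.0469). The adjusted p (limma) of each of the 12 genes named for smallest p in these lists was 0.844.

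**Figure D5:**
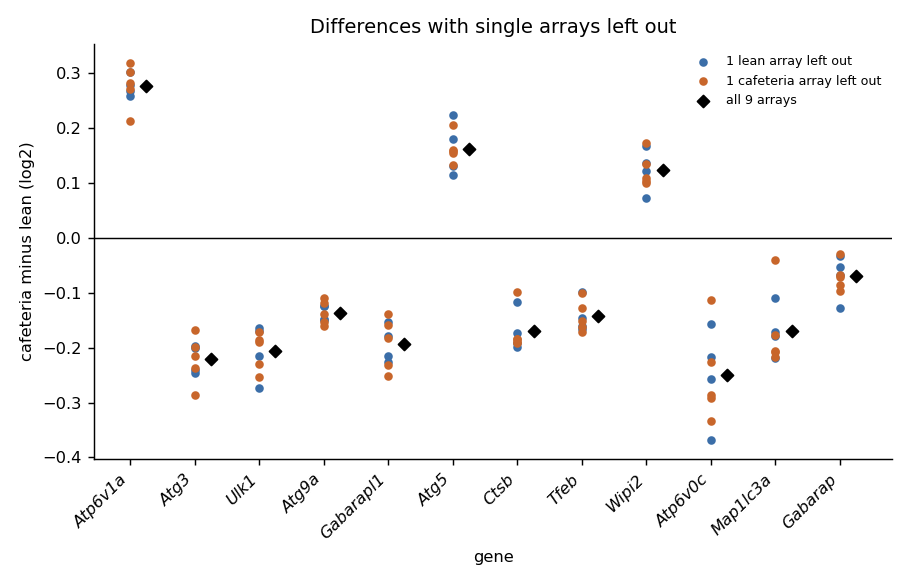
Difference between cafeteria and lean islets (log2, vertical axis) for 12 members with all 9 arrays (diamonds) and with each lean (blue) or cafeteria (orange) array left out. No point of these 12 genes crosses 0, while those of Map1lc3a run from -0.22 to -0.040 and those of Atp6v0c from -0.37 to -0.11.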

How the data were processed

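The authors deposited log2 expression values per probe set for 9 arrays. Per the submitters' processing notes the tools were RMA, affy 2.0.1 and R 2.7.0, with no role stated for each. RMA equalises the distributions of the arrays, so a shift shared by most genes would be removed, and it gives no detection call. No 2 arrays held identical values, and correlations between arrays lay between 0.979 and 0.994. After removal of 57 control probe sets 31042 were tested, of which 20826 carry a single gene in the platform annotation. Each gene was represented by its brightest single-gene probe set, judged on all arrays together. Lean and cafeteria arrays were compared with limma 3.58.1 (R 4.3.3; lmFit, plain eBayes, two-sided, no covariates), adjusted by Benjamini-Hochberg across the 31042 probe sets and called at 0.05; the script was tested on simulated data. Single values were compared by an exact permutation test over 126 splits. A score is the mean over a list of the deviations from the 9-array mean. All members are named, with every array's value for the 10 members of smallest p, the Atg8 family and Tfeb, and so are the 3 genes of smallest p in each further list. The members, lists and motifs were chosen with earlier results of these data known. Promoter sequences are from RefSeq (GRCr8). Python 3.11.15, numpy 2.4.6, pandas 2.3.3 and matplotlib 3.10.9 were used. Alternatives were scalings, a brightness filter, variance models, array weights, covariates, other probe sets and single arrays left out.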

Additional observations from a re-analysis of the deposited data

Results flagged for a closer look

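In 5 of 66 groups of arrays (33 members, each in lean and in cafeteria islets) 1 array stood apart from the others of its group by Dixon's test at the 95% level, where chance gives about 1 in 20. Cafeteria replicate 3 was low for Map1lc3a, at 8.67 against 9.22 to 9.38 in the other cafeteria arrays, and for Ctsb, at 11.17 against 11.51 to 11.54. Cafeteria replicate 1 was high for Atg13, at 9.62 against 9.27 to 9.31. Lean replicate 2 was low for Lipa, at 6.29 against 6.74 to 6.81 in the other lean arrays. Lean replicate 1 was low for Atp6v0d1, at 10.93 against 11.27 to 11.31.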

How the results depend on the processing

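No member reached an adjusted p of 0.05 or 0.10 in any of the 18 settings tried by limma, and the lowest adjusted p in any was 0.346. The count of members at unadjusted p under 0.05, 2 as reported, was 7 with RNA quality as a covariate (13.5% of all genes), 5 with array weights (9.84%) or the macrophage score (7.05%), 3 by the exact permutation test (6.56%) and 1 with median centring (6.74%) or among the brighter probe sets (6.14%), and 1 to 5 with single arrays left out, where the share of all genes ran from 4.39% to 10.8%. With single arrays left out the autophagy median ran from -0.071 to -0.013 and the lysosome median from -0.050 to 0.000092. Of the 33 members 20 kept their sign in all 18 settings, other probe sets apart. Atg13 turned to 0.0041 with median centring and 0.0037 with repeated quantile normalization. With array weights Atg4b was -0.015, Atg7 0.039, Lamp2 -0.018 and Atp6v1b2 -0.00081. With the acinar score Atg4b was -0.026, Atg7 0.011, Lamp2 -0.0073 and Lipa 0.0024. With the macrophage score Atg4b was -0.062, Atg16l1 -0.012, Lipa 0.092 and Atp6v1b2 -0.038, and with RNA quality Atg16l1 was -0.018. The mean of a gene's probe sets gave Atg4b -0.033, Atg7 0.022, Gabarap 0.031, Lamp1 0.15 and Lamp2 -0.092. Of 21 other probe sets 12 had the opposite sign. They were those of Atg9a (0.037), Atg4b (-0.067), Atg7 (0.12), Atg12 (0.11), Gabarap (0.13), Gabarapl1 (0.059), Sqstm1 (0.012, 0.062 and 0.0081), Lamp1 (0.43 and 0.10) and Lamp2 (-0.18). Below every array median in mean level were those of Atg7 (4.22), Lamp1 (4.30 and 4.21) and, for Sqstm1, those at 0.062 (4.74) and 0.0081 (4.63). That of Atg9a (5.29) lay among the array medians. With single arrays left out 11 members changed sign: Atg13 (-0.077 to 0.031), Atg4b (-0.037 to 0.054), Atg7 (-0.11 to 0.067), Atg16l1 (-0.049 to 0.050), Lamp2 (-0.025 to 0.034), Ctsl (-0.12 to 0.012), Hexa (-0.093 to 0.011), Lipa (-0.16 to 0.018), Atp6v0d1 (-0.12 to 0.0096), Atp6v1b2 (-0.017 to 0.066) and Atp6v1h (-0.021 to 0.067). The causes were not tested. The labels name no pairs of lean and cafeteria samples, and the groups were compared unpaired. Replicate numbers follow the order of the samples within each group, because the labels give none. The number of arrays limits the precision.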
